A study of Homo sapiens with 29 samples.

Results

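The HOX cluster genes are the 39 members of the HOXA, HOXB, HOXC and HOXD clusters, chosen here by symbol alone out of 60675 genes in the count table. The data are polyadenylated RNA of WM239A, a line from a human melanoma metastasis, read in 29 libraries of 10 groups. In 9 groups the cells overexpressed BRAF-V600E, an activated kinase common in melanoma that signals through MEK and ERK, and in 1 group they carried a vector instead. LGX818 (encorafenib) blocks this kinase and was given at 500 nM. BRAF-V600E cells were sampled after 20 hours and after 7 days on drug (week 1), then in an intermittent and a continuous arm. The intermittent arm had DMSO for 7 days (week 2 off drug), drug again for 7 days (week 3 back on drug) and DMSO for another 7 days (week 4 off drug). The continuous arm was kept on drug for 14, 21 and 28 days (continuous weeks 2, 3 and 4). BRAF-V600E cells without drug (untreated cells below) and vector cells without drug completed the set. Groups held 3 libraries, except continuous week 4 with 2. All groups are the same line, and no untreated group was sampled at a later week, so drug and time in culture cannot be told apart in comparisons with untreated cells. The sources used here do not say that the libraries of a group were separate cultures, so p-values measure the spread between these libraries, which may be technical.

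HOX genes encode homeodomain transcription factors that give cells along the body axis their regional identity. Each cluster is a row of related genes, numbered by paralogue group from 1 at the anterior end to 13 at the posterior end. Genes at the low-numbered end are switched on early and in anterior tissue, those at the high-numbered end later and in posterior tissue. Trithorax-type enzymes keep the active clusters open, Polycomb complexes keep silent ones closed, and PBX and MEIS proteins bind DNA together with HOX proteins. Melanocytes come from the neural crest, and adult skin cells keep HOX patterns that reflect their place in the body. HOXB7 is known in melanoma as an inducer of the growth factor FGF2.

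On GRCh38 the HOXA cluster (11 members) spans chromosome 7 from 27092993 to 27200106 on the minus strand. The HOXB cluster (10 members) spans chromosome 17 from 48528526 to 48729178 on the minus strand. HOXC (9 members) lies on the plus strand of chromosome 12 from 53938765 to 54056030, and HOXD (9 members) on the plus strand of chromosome 2 from 176092891 to 176190907. HOX genes overlap each other and their antisense partners, and the strand setting of the read counting is not given in the sources used here. Counts of the most overlapped members are therefore uncertain. Exons of other genes on the same strand cover 80.5% of the exon bases of HOXD4, 62.2% of HOXD3 and 59.9% of HOXC5. Exons on the opposite strand cover 62.5% of HOXA7, 58.1% of HOXD1 and 39.3% of HOXA6.

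Libraries held between 22934039 and 35804978 counts. Levels are given as CPM, read counts scaled to a common library size with TMM factors. The deposited raw counts were tested with edgeR's quasi-likelihood test, and a gene passed where its p-value, adjusted by the Benjamini-Hochberg method over all 20494 genes tested, was under 0.05. Markers of melanocytic cells were present: the sum of 7 such genes lay between 2368 and 2483 CPM in untreated cells. That sum was 8077 to 8232 CPM at 20 hours, 821 to 887 CPM at week 1 and 591 to 619.5 CPM at week 2 off drug. It was 407 to 533 CPM at week 3 back on drug, 964.5 to 1030 CPM at week 4 off drug, and 317 to 477 CPM over continuous weeks 2 to 4. MITF, 1 of the 7, moved against the sum in the first holiday. It averaged 34.7 CPM at week 2 off drug, against 11.4 CPM at week 1. In that comparison 1 of the 7 passed higher and 5 lower. The sum of 6 fibroblast markers was 2.04 to 2.20 CPM in untreated cells and 2.33 to 4.14 CPM at 20 hours. It was 249 to 261 CPM at week 1, 21.7 to 25.8 CPM at week 2 off drug, 633 to 756 CPM at week 3 back on drug and 26.9 to 29.7 CPM at week 4 off drug. Under continuous drug it reached 1072 to 2470 CPM over weeks 2 to 4, most of it from the collagen gene COL1A1. PDGFRB, 1 of the 6, moved against the sum off drug. It averaged 15.3 CPM at week 2 off drug, against 3.43 CPM at week 1. At week 4 off drug it averaged 20.6 CPM, against 9.10 CPM at week 3 back on drug. The sum of 3 endothelial markers was 4.40 to 5.49 CPM at week 2 off drug and 4.50 to 7.00 CPM at week 4 off drug, and at most 0.961 CPM in all other libraries. CDH5 had 0 CPM in all libraries of both off-drug groups, so their sums came from PECAM1 and VWF. Sums of 3 keratinocyte and 3 leukocyte markers were at most 4.68 and 0.421 CPM. Their part in the HOX results was not tested, and in bulk RNA fewer cells of a type cannot be told apart from less RNA per cell. Replicate 3 of continuous week 2 and replicate 1 of week 3 back on drug stood apart from both other libraries of their groups. A chi-square over genes gave 38.2 and 50.8 per gene for the first and 27.2 and 30.7 for the second, against 3.27 to 19.0 for all other pairs within a group.

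Of the 39 members, 37 averaged at least 0.5 CPM in some group. HOXB1, which patterns the hindbrain, had 5 counts in all 29 libraries together, in 3 libraries, and was not tested. In untreated cells it had 0 counts over 3 libraries, which allows up to 0.0365 CPM (3 counts over the group, counting error only). HOXC5 averaged under 0.5 CPM in every group, with 0.240, 0.357 and 0.454 CPM in untreated cells, and was tested with the other 37. HOXA9, a gene of blood progenitors, was also low, with 0.720, 0.389 and 0.530 CPM in untreated cells, and passed in no comparison.

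Per kilobase of exon, HOXB7 was the most abundant member in untreated cells (35.5 CPM per kb), before HOXD13 (26.4), HOXB2 (19.0), HOXB9 (13.5) and HOXB8 (11.5). The libraries of each of these neighbours in the order did not overlap. HOXC10 (10.7 CPM per kb), HOXD9 (10.2) and HOXA10 (9.50) followed with overlapping libraries. Below them came HOXA3 (7.52 CPM per kb), whose libraries did not overlap those of HOXA10. At the low end stood HOXC11 (0.366 CPM per kb), HOXD3 (0.208), HOXC5 (0.194), HOXA9 (0.180) and HOXA7 (0.144). This order depends on the divisor. Per kilobase of exon not shared with other genes of the same strand, HOXD3 (0.550) and HOXC5 (0.484) were above HOXC11 (0.366). By that divisor HOXD4 was at 3.17, against 0.619 over all its exons. High and low members thus sat side by side: HOXD13 and HOXD12 (0.695 CPM per kb) are neighbours, as are HOXA10 and HOXA9.

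The windows of 250 bases upstream of 3 members are shown as examples, chosen among the members with a promoter sequence available here. HOXD13 fell most at 20 hours, HOXD13 and HOXA10 rose in both drug holidays, and HOXD11 fell in both. Other members with large changes, such as HOXB2, HOXB9 and HOXC6, had no promoter sequence available. The 3 windows come from RefSeq (GRCh38.p14), read 5′ to 3′ on the gene's strand, and none of them holds an exon of GENCODE 29. HOXD13 is chr2:176092471-176092720 on the plus strand, HOXA10 is chr7:27174321-27174570 on the minus strand, at the downstream of its 2 starts in the table, and HOXD11 is chr2:176107030-176107279 on the plus strand. Capitals mark CACGTG, an E-box that can be bound by MITF and MYC, and CCAAT or its reverse complement.
HOXD13: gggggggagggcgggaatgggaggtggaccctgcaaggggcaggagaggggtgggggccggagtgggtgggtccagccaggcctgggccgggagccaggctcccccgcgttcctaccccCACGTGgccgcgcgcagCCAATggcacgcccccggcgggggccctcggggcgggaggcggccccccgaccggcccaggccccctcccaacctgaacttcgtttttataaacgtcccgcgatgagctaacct
HOXA10: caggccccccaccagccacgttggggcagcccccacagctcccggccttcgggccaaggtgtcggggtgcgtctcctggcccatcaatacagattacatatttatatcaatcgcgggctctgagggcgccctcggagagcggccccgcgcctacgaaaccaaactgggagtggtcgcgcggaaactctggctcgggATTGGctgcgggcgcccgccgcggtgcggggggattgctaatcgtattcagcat
HOXD11: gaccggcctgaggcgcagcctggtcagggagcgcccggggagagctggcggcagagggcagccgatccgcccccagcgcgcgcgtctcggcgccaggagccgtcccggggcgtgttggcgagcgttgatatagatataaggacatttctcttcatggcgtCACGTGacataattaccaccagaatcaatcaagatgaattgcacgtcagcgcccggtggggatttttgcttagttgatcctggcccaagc
The search covered 12 motifs on both strands in the 20 members that matched the promoter table, out of 34943 promoters of this length. These 20 members have 26 different windows, 7 of them of HOXA3, 2 of HOXA10, and 1 shared by HOXC4 and HOXC5. HOXB1 was the only HOXB member among them, and HOXC4 and HOXC5 the only HOXC members. The search therefore says little about HOXB and HOXC. CACGTG stood in 8 of the 26 windows, 1 in each of 8 members (HOXA3, HOXA4, HOXA9, HOXD1, HOXD3, HOXD10, HOXD11 and HOXD13), or 30.8%, against 6.32% of all promoters. CCAAT stood in 17 of the 26 windows (65.4%), against 32.0% of all promoters. None of the 8 CACGTG and 21 CCAAT matches overlapped a match of another motif searched. TCATGTG stood in 6 windows (2.53% of all promoters), GGAATG in 7 (11.9%), GGGCGG in 13 (42.5%), TATAAA in 5 (10.8%), TGATNNAT in 3 (6.49%) and TGACAG in 2 (13.1%). Windows of 1 cluster are not independent, so the shares are a description only. CCGGAAG (8.48% of all promoters), TGANTCA (6.59%), TGACGTCA (1.63%) and 1 form of the CArG box of serum response factor (0.0315%) were in no window of these members. Counted back from the RefSeq start that ends each window, CACGTG began 131 bases upstream in HOXD13 and 90 bases upstream in HOXD11, genes that moved in opposite directions off drug. These distances depend on the start used. GENCODE 29 begins HOXD11 at 176104216, so its window lies inside the gene there, and HOXD13 at 176092891.

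Summed over each cluster, HOXA, HOXB and HOXD were lower at week 1 on drug than in untreated cells, and HOXC was higher. All members together had 518 ± 18.3 CPM in untreated cells, 423 ± 27.6 CPM at 20 hours and 343 ± 2.56 CPM at week 1 (SD, n = 3 each). HOXA held 102 ± 4.50 CPM in untreated cells, 65.3 ± 1.97 CPM at 20 hours and 41.0 ± 1.98 CPM at week 1. HOXB held 215 ± 11.0, 195 ± 16.1 and 120.1 ± 0.427 CPM at the same times. HOXC was the exception, with 79.4 ± 4.25 CPM in untreated cells, 85.4 ± 6.38 CPM at 20 hours and 112 ± 2.99 CPM at week 1. Off drug at week 2 the HOXC sum was 76.4 to 86.3 CPM, against 109 to 115 CPM at week 1, and at week 4 off drug it was 88.1 to 95.8 CPM, against 129 to 142 CPM at week 3 back on drug. HOXD held 122 ± 0.646 CPM in untreated cells, 77.7 ± 3.49 CPM at 20 hours and 70.2 ± 1.79 CPM at week 1. In all libraries of weeks 2 to 4 it held between 45.6 and 59.3 CPM. Sums are carried by the few abundant genes and include overlapping members, so the accounts below go gene by gene.

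**Figure D1:**
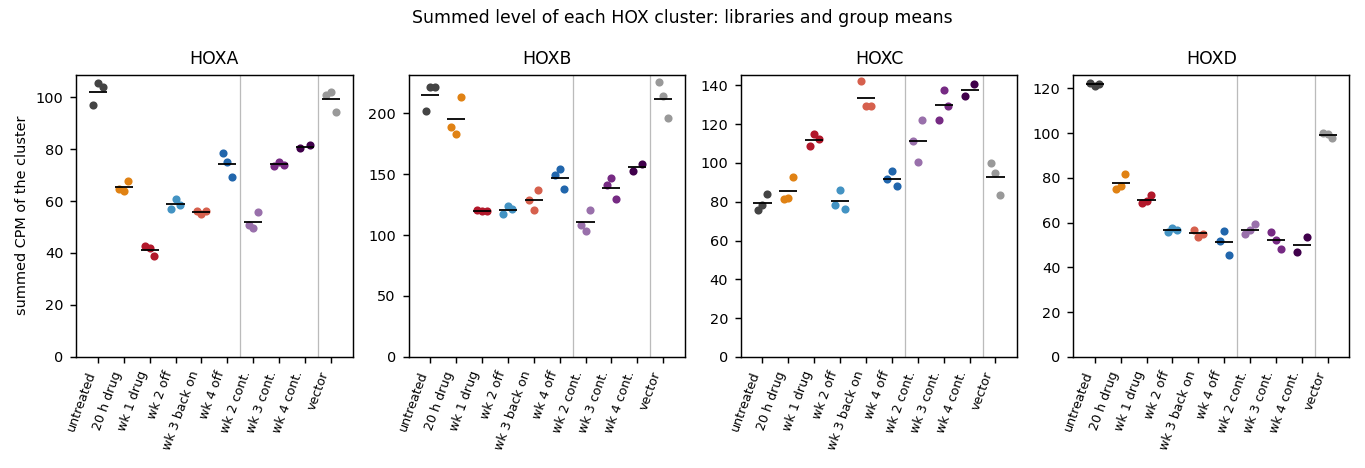
Summed CPM of the members of each HOX cluster, 1 point per library and a bar at the group mean. The x axis runs over untreated BRAF-V600E cells, 20 hours and week 1 on drug, the intermittent arm (weeks 2 off, 3 back on, 4 off), the continuous arm (cont.) and vector cells. HOXC libraries lie at 109 to 115 CPM at week 1 and at 75.8 to 84.1 CPM in untreated cells, while HOXA libraries lie at 38.8 to 42.5 and 97.0 to 105 CPM.

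**Figure D2:**
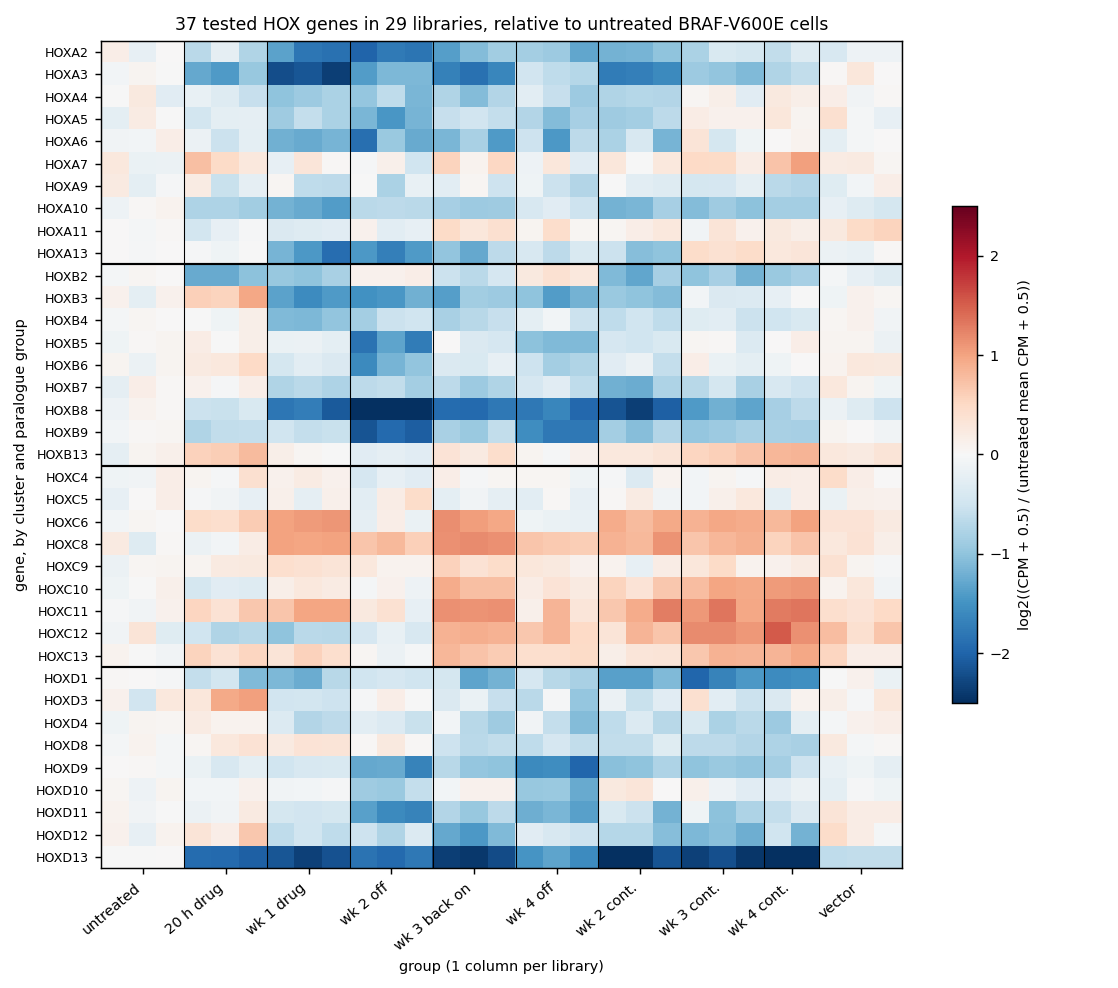
Level of 37 tested HOX genes (rows, by cluster and paralogue group) in each library (columns) relative to the mean of untreated BRAF-V600E cells, as log2 of CPM plus 0.5. Red is higher and blue lower than untreated; HOXD13, HOXA3 and HOXB8 are blue in all drug-exposed groups, while HOXC6, HOXC8 and HOXC11 are red at week 1.

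Added BRAF-V600E, without drug, was set against the vector. Of the HOX genes, 6 of 38 passed (15.8%), 3 higher and 3 lower, a share near the 17.0% of all genes tested (7.04% higher and 9.92% lower). HOXC12 had the largest change and HOXD13 the largest rise. HOXD13, which patterns the digits and the genital tract, had 59.1, 59.0 and 59.3 CPM in untreated BRAF-V600E cells, against 37.7, 38.4 and 38.2 CPM in vector cells (log2 change 0.63, SE 0.09, adjusted p = 7.06e-06). Every BRAF-V600E library was thus above every vector library, and the spread within either group was below 1 CPM. HOXA10 was 1.25-fold higher (35.2 ± 2.77 against 28.1 ± 2.42 CPM, SD, n = 3 each) and HOXB8 1.25-fold higher (23.6 ± 1.83 against 18.8 ± 2.44 CPM). HOXC12 (log2 change -0.77, SE 0.21, adjusted p = 0.00878), HOXA11 (log2 change -0.48, SE 0.15, adjusted p = 0.0271) and HOXC6 (log2 change -0.31, SE 0.09, adjusted p = 0.0174) were lower in BRAF-V600E cells. HOXD13 alone kept its call whichever single library was left out. Left out singly, BRAF-V600E replicate 3 or vector replicate 1 ended the call of HOXC12 (adjusted p = 0.0785 and 0.0651), and BRAF-V600E replicate 3 or vector replicate 3 that of HOXA10 (0.0541 and 0.0571). HOXA11 lost it without any of 5 libraries (0.0627 to 0.110), and HOXB8 (0.0809 to 0.182) and HOXC6 (0.0504 to 0.0857) without any of 4. The count of calls then ran from 2 to 5, with 2 without BRAF-V600E replicate 3. With no count filter HOXA11, HOXB8 and HOXC6 lost their calls as well (adjusted p = 0.0796, 0.0768 and 0.0594).

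At 20 hours on drug, set against untreated cells, HOX genes had already split. HOXD13 had 15.1, 15.0 and 14.1 CPM at 20 hours, against 59.1, 59.0 and 59.3 CPM in untreated cells, 4.01-fold lower (log2 change -2.00, SE 0.10, adjusted p = 6.29e-17). HOXA3, which shapes pharyngeal organs in mice, had 13.1, 11.9 and 16.5 CPM, against 31.0, 33.9 and 32.3 CPM (log2 change -1.23, SE 0.11, adjusted p = 4.90e-11). HOXB2, a hindbrain and neural crest gene, had 18.3, 18.3 and 21.4 CPM, against 42.9, 45.6 and 44.4 CPM (log2 change -1.20, SE 0.10, adjusted p = 2.85e-11). In all 3 genes the groups lay far apart. HOXB3, which neighbours HOXB2, went the other way, with 31.3, 30.3 and 40.5 CPM at 20 hours, against 22.1, 17.1 and 22.1 CPM in untreated cells (log2 change 0.74, SE 0.13, adjusted p = 1.93e-05). HOXB13, the gene of the prostate and tail end, rose 1.63-fold (log2 change 0.71), and HOXC6 1.44-fold (log2 change 0.52). The low genes HOXD3 (log2 change 1.17, SE 0.41, adjusted p = 0.0172) and HOXA7 (log2 change 1.03, SE 0.44, adjusted p = 0.0486) had the largest rises on the log2 scale. HOXD3 lost its call without untreated replicate 2 (adjusted p = 0.133) or 20-hour replicate 2 (0.0596) or 3 (0.0814). HOXA7 lost its call without any of 4 libraries (adjusted p = 0.0774 to 0.207). The HOXA7 call was also lost with DESeq2 (adjusted p = 0.0792). In edgeR it was lost with RLE factors (0.0517), without both libraries that stood apart (0.0677) and with no count filter.

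In all, 21 of 38 members passed at 20 hours, 10 higher and 11 lower, against 53.7% of all genes (28.4% higher and 25.2% lower). The median change of the members was -0.0038 on the log2 scale, against 0.06 over all genes. The share of members that passed was near that of all genes. Among the 7 tested anterior members (paralogue groups 1 to 3), 3 were higher, such as HOXB3, and 4 lower, such as HOXA3 and HOXB2. Of 15 central members (groups 4 to 8), 4 were higher and 1 lower, and of 16 posterior members (groups 9 to 13), 3 were higher and 6 lower.

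**Figure D3:**
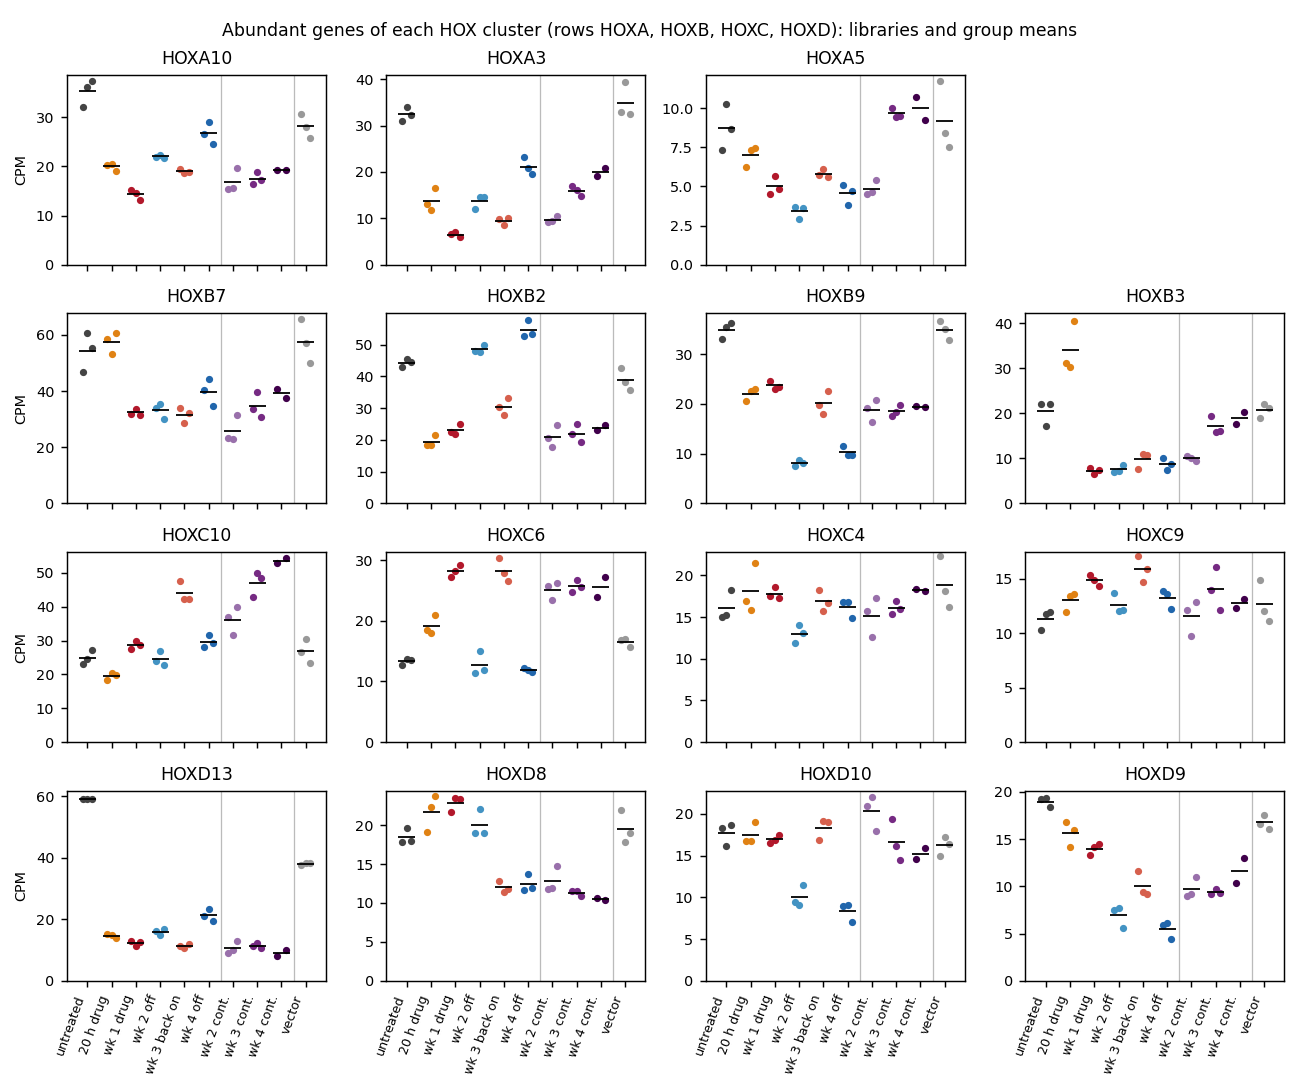
CPM in each library (points) and group mean (bars) for 3 HOXA genes and 4 genes of each other cluster, all with high group means, with the y axis from 0 and groups in the order untreated, 20 hours, week 1, intermittent weeks 2 to 4, continuous weeks 2 to 4 (cont.) and vector. HOXD13 drops from 20 hours on, HOXB2 is high off drug at weeks 2 and 4, and HOXB9, HOXC6 and HOXD10 are low there.

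By week 1 on drug, most members were lower than in untreated cells, while part of the HOXC cluster was higher. The count was 27 of 38, 21 lower and 6 higher, against 54.2% of all genes (26.7% lower and 27.5% higher). The median of the members was -0.65 on the log2 scale, and 0 over all genes. HOXA3 had 6.55, 6.95 and 5.96 CPM at week 1, against 31.0, 33.9 and 32.3 CPM in untreated cells, 4.99-fold lower (log2 change -2.32, SE 0.12, adjusted p = 3.99e-17). HOXD13 had 13.1, 11.3 and 12.7 CPM, against 59.1, 59.0 and 59.3 CPM (log2 change -2.26, SE 0.10, adjusted p = 2.77e-18), and HOXA2, a gene of the second pharyngeal arch, had 1.43, 0.894 and 0.823 CPM, against 4.92, 3.73 and 4.39 CPM (log2 change -2.07, SE 0.23, adjusted p = 3.62e-09). None of these groups overlapped. HOXB8 (log2 change -1.95), HOXA13 (-1.86) and HOXB3 (-1.50) fell by more than 1 log2 unit as well. HOXB3, raised at 20 hours, was now at 7.78, 6.55 and 7.34 CPM.

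HOXC6, HOXC8 and HOXC11 were the members that rose most at week 1. HOXC6, a thoracic patterning gene, had 27.2, 28.3 and 29.1 CPM at week 1, against 12.7, 13.8 and 13.5 CPM in untreated cells (log2 change 1.08, SE 0.09, adjusted p = 1.12e-11). HOXC8, another thoracic gene, had 12.3, 12.1 and 12.2 CPM, against 7.00, 4.64 and 6.02 CPM (log2 change 1.06, SE 0.12, adjusted p = 9.16e-09). HOXC11, a posterior gene, had 2.24, 2.86 and 2.86 CPM, against 1.16, 1.10 and 1.32 CPM (log2 change 1.16, SE 0.23, adjusted p = 7.82e-05). The other HOXC members that passed were HOXC13, a hair and nail gene (log2 change 0.48), HOXC9 (0.39) and, in the other direction, HOXC12 (-1.14). So 5 of 9 HOXC members were higher and 1 lower, while 7 of 11 tested HOXA, 7 of 9 tested HOXB and 6 of 9 HOXD members were lower. The 1 higher member outside HOXC was HOXD8 (log2 change 0.30). Cluster medians were -1.15 for HOXA, -0.74 for HOXB, 0.39 for HOXC and -0.91 for HOXD on the log2 scale.

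The first drug holiday was read against the cells it started from (week 1 on drug) and against cells of the same age kept on drug (continuous week 2). Within single clusters, neighbouring genes moved in opposite directions. In HOXB, HOXB2 and HOXB4 rose against week 1 while HOXB5, HOXB6, HOXB8, HOXB9 and HOXB13 fell. HOXB2 had 48.0, 47.8 and 49.8 CPM at week 2 off drug, against 22.6, 21.9 and 25.1 CPM at week 1 (log2 change 1.07, SE 0.10, adjusted p = 2.27e-10) and 20.5, 17.7 and 24.6 CPM at continuous week 2 (log2 change 1.22, SE 0.10, adjusted p = 1.58e-11). HOXB9, a gene of the rib-bearing trunk, had 7.46, 8.65 and 8.04 CPM off drug, against 24.6, 23.1 and 23.5 CPM at week 1 (log2 change -1.55, SE 0.10, adjusted p = 2.28e-14). HOXB5, a gene of gut and vagal neural crest, had 1.59, 2.503 and 1.74 CPM, against 6.20, 6.23 and 5.82 CPM at week 1 (log2 change -1.64, SE 0.16, adjusted p = 3.14e-10) and 5.10, 4.81 and 5.27 CPM at continuous week 2 (log2 change -1.37, SE 0.16, adjusted p = 1.75e-08). In each of these comparisons the off-drug libraries lay wholly outside those on drug.

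Elsewhere, HOXA3 had 12.03, 14.6 and 14.6 CPM off drug, against 6.55, 6.95 and 5.96 CPM at week 1 (log2 change 1.08, SE 0.12, adjusted p = 3.67e-09). HOXA10 rose 1.54-fold (22.0 ± 0.300 against 14.3 ± 1.03 CPM at week 1, SD, n = 3 each). HOXD1 rose too (log2 change 0.76, SE 0.30, adjusted p = 0.0338). Its call was lost without any 1 of 5 of the 6 libraries (adjusted p = 0.0556 to 0.160) and with no count filter (0.0504). HOXC6 had 11.3, 14.9 and 11.9 CPM, against 27.2, 28.3 and 29.1 CPM at week 1 (log2 change -1.15). HOXD11, a forearm gene, had 0.754, 0.572 and 0.522 CPM, against 1.89, 1.82 and 1.88 CPM at week 1 (log2 change -1.60, SE 0.28, adjusted p = 1.65e-05) and 1.98, 1.73 and 0.935 CPM at continuous week 2 (log2 change -1.33, SE 0.29, adjusted p = 0.000267). HOXD8 was higher than at continuous week 2 (log2 change 0.63, SE 0.10, adjusted p = 3.80e-06). HOXC12 had 1.05, 1.32 and 1.08 CPM off drug, against 0.540, 0.808 and 0.790 CPM at week 1, and was the 1 HOXC member higher in that comparison (log2 change 0.67, SE 0.26, adjusted p = 0.0261). Its call was lost without week 1 replicate 1 (adjusted p = 0.139) or week 2 off-drug replicate 2 (0.134), and with no count filter (0.0762). Against continuous week 2 HOXC12 was lower (log2 change -1.25, SE 0.22, adjusted p = 1.40e-05).

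Against week 1, 23 members passed, 8 higher and 15 lower, against 54.5% of all genes (27.7% higher and 26.8% lower), with a member median of -0.15. Against continuous week 2, 26 passed, 8 higher and 18 lower, against 55.2% of all genes (27.3% higher and 27.9% lower), with a member median of -0.33. Both comparisons share the week 2 off-drug libraries. By position, 4 of 7 anterior members were higher than at week 1 and none lower by the edgeR threshold. Of the central members 1 of 15 was higher and 7 lower, and of the posterior members 3 of 16 were higher and 8 lower.

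At the end of the first holiday many members were below their untreated levels. Set against untreated cells, 23 members passed at week 2 off drug, 21 lower and 2 higher, against 60.0% of all genes (28.8% lower and 31.2% higher). HOXB8, a gene of sensory neurons and myeloid cells, had 3.31, 3.22 and 3.17 CPM at week 2 off drug, against 21.6, 25.1 and 24.2 CPM in untreated cells, 7.32-fold lower (log2 change -2.87, SE 0.13, adjusted p = 2.53e-18). HOXA2 (log2 change -2.36, SE 0.24, adjusted p = 5.31e-10) and HOXD11 (log2 change -2.15, SE 0.27, adjusted p = 5.80e-08) came next. HOXD13 remained 3.70-fold lower (16.0 ± 0.957 against 59.1 ± 0.131 CPM, SD, n = 3 each). HOXC8 was higher (log2 change 0.76, SE 0.12, adjusted p = 4.01e-06). HOXB2 was at 48.5 ± 1.13 CPM, against 44.3 ± 1.33 CPM in untreated cells, a difference that did not pass (log2 change 0.13 ± 0.10 SE, adjusted p = 0.259).

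Back on drug at week 3, most members that passed were higher than at week 2 off drug. HOXB5 had 7.04, 5.31 and 5.09 CPM back on drug, against 1.59, 2.503 and 1.74 CPM off drug (log2 change 1.57, SE 0.16, adjusted p = 7.02e-10). HOXC12 had 3.29, 3.38 and 3.28 CPM, against 1.05, 1.32 and 1.08 CPM (log2 change 1.52, SE 0.21, adjusted p = 3.67e-07), and HOXB9 had 19.8, 18.1 and 22.6 CPM, against 7.46, 8.65 and 8.04 CPM (log2 change 1.32, SE 0.10, adjusted p = 1.19e-12). None of the 3 overlapped between groups. HOXD8 (12.8, 11.4 and 11.8 CPM, against 18.9, 22.0 and 19.0 CPM off drug, log2 change -0.74, SE 0.10, adjusted p = 2.86e-07), HOXB2 (log2 change -0.68, SE 0.10, adjusted p = 9.90e-07) and HOXA3 (log2 change -0.54, SE 0.11, adjusted p = 0.000167) fell. So did HOXA10, HOXD13 and the low HOXD12 (log2 change -2.34). In all 29 of 38 passed, 22 higher and 7 lower, against 56.3% of all genes (27.8% higher and 28.5% lower), with a member median of 0.42 and 0.02 over all genes. By position 12 of 16 posterior members were higher, as were 8 of 15 central and 2 of 7 anterior ones. In HOXC 8 of 9 members were higher and none passed downward.

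The first and the second exposure to the drug differed for many members. Their difference was tested as the change of week 3 back on drug from week 2 off drug, minus the change of week 1 from untreated cells. It passed for 25 of 38 members, 22 of them with a more positive change at the second exposure, against 48.3% of all genes (23.3% more positive and 25.0% more negative), and the member median was 0.93. HOXA2 differed most (log2 change 3.14, SE 0.34, adjusted p = 4.01e-09), with changes of 1.07 at the second exposure and -2.07 at the first. HOXB8 followed (log2 change 2.86, SE 0.18, adjusted p = 2.10e-14), with 0.90 and -1.95, and HOXC12 (log2 change 2.66, SE 0.32, adjusted p = 3.79e-08), with 1.52 and -1.14. HOXD8 (log2 change -1.04, SE 0.14, adjusted p = 2.93e-07) and HOXC8 (log2 change -0.59, SE 0.17, adjusted p = 0.00398) had a more negative change at the second exposure. HOXC6 and HOXC11 rose at both exposures, HOXC6 by 1.15 and 1.08 and HOXC11 by 1.2 and 1.16. Their differences (0.07 ± 0.13 SE and 0.05 ± 0.32 SE) did not pass (adjusted p = 0.700 and 0.934). The libraries of the 2 exposures are not shared. Across the 38 members the changes had a Pearson correlation of 0.257, and 10 of the 21 members that passed in both moved in the same direction, against 63.9% of the genes of the whole table that passed in both. Members overlap and share libraries within an exposure, so this is a description only.

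**Figure D4:**
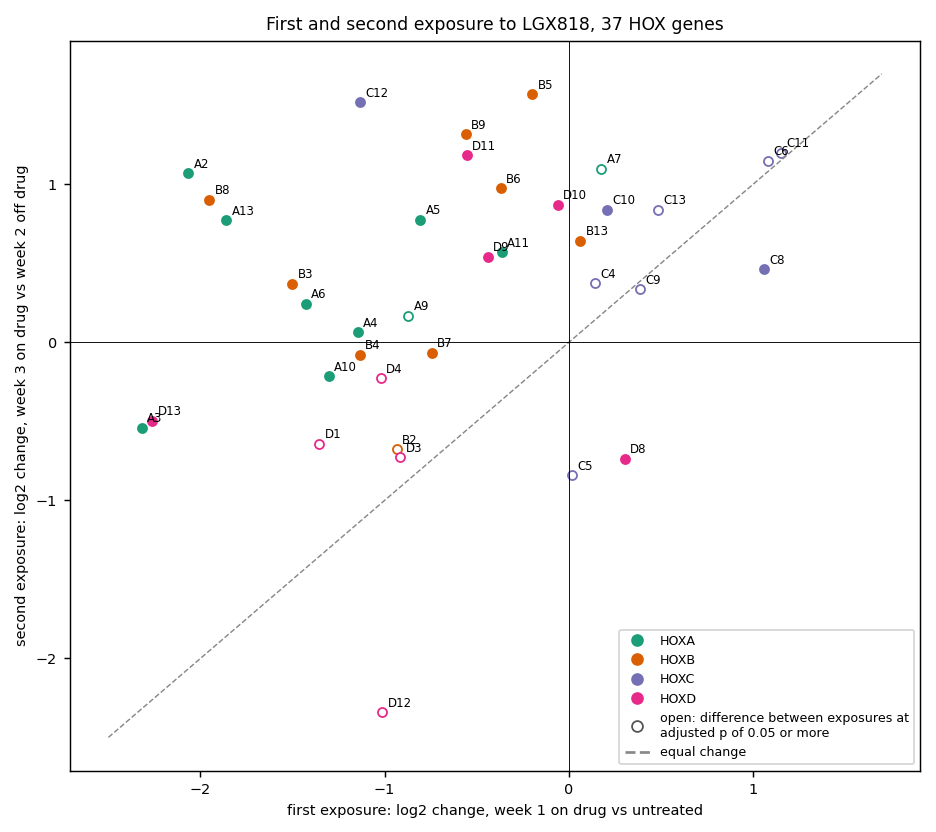
Log2 change of 37 tested HOX genes at the second exposure (y axis, week 3 back on drug against week 2 off drug) and at the first (x axis, week 1 against untreated cells), labelled without the HOX prefix and coloured by cluster. Filled points passed the test of the difference; HOXA2, HOXB8, HOXA13 and HOXC12 lie upper left, lower at week 1 and higher at week 3, while HOXC6 and HOXC11 lie near the dashed line of equal change.

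At week 3, cells back on drug were also set against cells that had never left it. HOXA13, the digit and genital partner of HOXD13, had 1.67, 1.28 and 2.23 CPM back on drug, against 5.41, 5.16 and 5.42 CPM at continuous week 3 (log2 change -1.63, SE 0.19, adjusted p = 7.02e-08). HOXA6 (log2 change -1.23, SE 0.26, adjusted p = 0.000520) and HOXA4 (log2 change -1.05, SE 0.22, adjusted p = 0.000391) were lower as well, and 7 of 11 HOXA members passed downward. HOXB2 (log2 change 0.47, SE 0.10, adjusted p = 0.000658), HOXC8 (log2 change 0.36, SE 0.11, adjusted p = 0.0178) and HOXD1 (log2 change 1.36, SE 0.35, adjusted p = 0.00373) were higher. The count was 14 of 38, 3 higher and 11 lower, against 28.4% of all genes (14.0% higher and 14.3% lower). Without week 3 replicate 1, the library that stood apart, 9 passed, and HOXD1 lost its call (log2 change 0.84, adjusted p = 0.0872). HOXD1 also lost it in a fit of the compared groups only (0.0672) and without both libraries that stood apart (0.0884). HOXC8 lost its call without continuous week 3 replicate 1 (adjusted p = 0.0761).

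In the second holiday, week 4 off drug was compared with week 3 back on drug. HOXA3 had 23.1, 20.8 and 19.5 CPM off drug, against 9.77, 8.54 and 10.1 CPM (log2 change 1.16, SE 0.11, adjusted p = 3.52e-10). HOXD13 had 21.1, 23.3 and 19.6 CPM, against 11.2, 10.8 and 12.1 CPM (log2 change 0.91, SE 0.10, adjusted p = 7.69e-09), and HOXB2 had 52.7, 57.8 and 53.4 CPM, against 30.3, 27.8 and 33.1 CPM (log2 change 0.85, SE 0.10, adjusted p = 2.23e-08). HOXD12, a digit gene with few counts, had 0.681, 0.589 and 0.5003 CPM, against 0.0930, 0.0305 and 0.164 CPM (log2 change 2.59, SE 0.49, adjusted p = 6.44e-05). The off-drug libraries were above all on-drug libraries in all 4. HOXC6 had 12.3, 11.8 and 11.6 CPM, against 30.4, 27.8 and 26.6 CPM (log2 change -1.25, SE 0.09, adjusted p = 7.03e-13), and HOXD10, a posterior gene of hindlimb motor neurons, had 8.93, 9.11 and 7.07 CPM, against 16.9, 19.1 and 19.0 CPM (log2 change -1.13, SE 0.12, adjusted p = 1.62e-09). HOXB9 fell as in the first holiday (log2 change -0.96, SE 0.10, adjusted p = 9.00e-10). In all 20 of 38 passed, 8 higher and 12 lower, against 45.5% of all genes (23.1% higher and 22.3% lower).

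The 2 holidays share no library. Of the 23 members that passed in the first and the 20 in the second, 17 passed in both (73.9% and 85.0% of the lists), and all 17 moved the same way, 5 higher and 12 lower. Over all genes tested, 66.4% of those called in the first holiday and 79.6% of those in the second were called in both, and 96.2% of these moved the same way, so the members' shares were near those of all genes. The 5 were HOXA3, HOXA10, HOXB2, HOXB4 and HOXD13, which had also been lower at week 1 than in untreated cells. Across the 38 members the 2 changes had a Pearson correlation of 0.604, as a description only. The difference between the holidays passed for 7 of 38 members, against 17.1% of all genes (7.6% more positive and 9.5% more negative). HOXB8 (log2 change 1.03, SE 0.18, adjusted p = 0.000107) and HOXB5 (log2 change 0.71, SE 0.22, adjusted p = 0.0208) had a more positive change in the second holiday. HOXB8 changed by 0.11 then, which did not pass, and by -0.92 in the first. HOXB5 lost its call without week 2 off-drug replicate 1 (adjusted p = 0.0802) or 3 (0.0524), and in a fit of the compared groups only (0.0574). HOXD12 had the larger change in the second holiday (log2 change 2.48, SE 0.65, adjusted p = 0.00632), against 0.11 ± 0.40 SE in the first, which did not pass. HOXD13 (0.54) and HOXB9 (0.60) had the more positive change in the second holiday too. HOXC12 (log2 change -0.91, SE 0.32, adjusted p = 0.0458) had the more negative change in the second holiday. The HOXC12 call was lost without any 1 of 11 libraries (adjusted p = 0.0534 to 0.154). It was also lost with DESeq2 (adjusted p = 0.0517) and, in edgeR, with no count filter (0.118). The same held in a fit of the compared groups only (0.0505) and without both libraries that stood apart (0.0632).

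**Figure D5:**
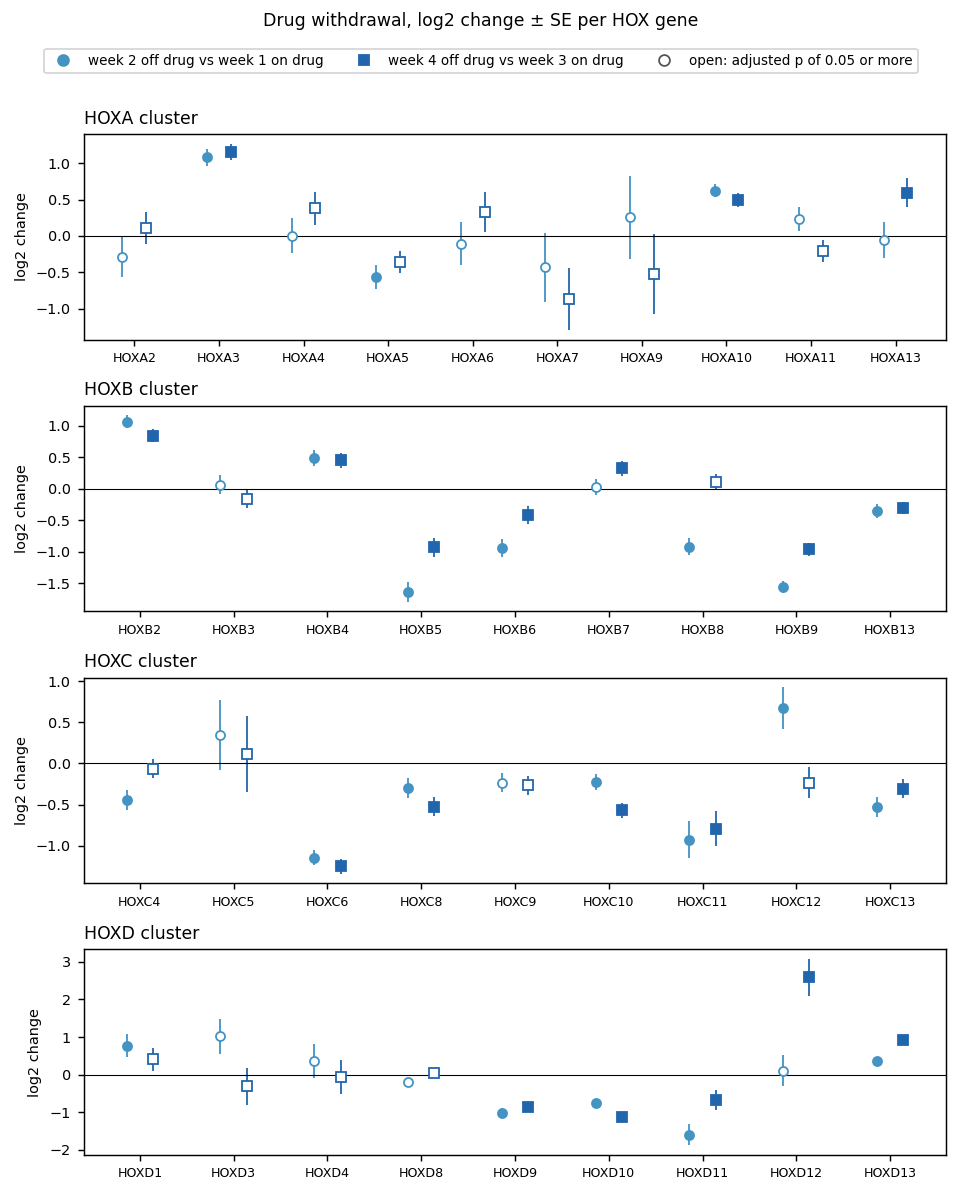
Log2 change ± SE of 37 tested HOX genes on drug withdrawal, by cluster in paralogue order, for week 2 off drug against week 1 (circles) and week 4 off drug against week 3 back on drug (squares); filled symbols passed. In HOXB, HOXB2 and HOXB4 lie above 0 in both holidays and HOXB5, HOXB6, HOXB9 and HOXB13 below it.

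Week 4 off drug differed widely from continuous week 4 (25 of 38 passed, 4 higher and 21 lower, against 51.2% of all genes, 26.1% higher and 25.1% lower). HOXB2 (52.7, 57.8 and 53.4 CPM off drug, against 23.0 and 24.8 CPM at continuous week 4, log2 change 1.19, SE 0.12, adjusted p = 3.78e-10), HOXD13 (log2 change 1.23, SE 0.12, adjusted p = 3.52e-10) and HOXD1 (log2 change 1.51, SE 0.38, adjusted p = 0.00136) led the higher members. HOXB5 (3.17, 3.01 and 3.002 CPM, against 7.05 and 7.89 CPM, log2 change -1.29, SE 0.16, adjusted p = 4.45e-08), HOXA5, a gene of the lung and neck (log2 change -1.14, SE 0.16, adjusted p = 7.55e-07), and HOXA7 (log2 change -1.63, SE 0.44, adjusted p = 0.00257) led the lower ones. Of the 26 members that differed from continuous drug at week 2 and the 25 at week 4, 23 did so at both (88.5% and 92.0% of the lists), and 22 of these in the same direction. Over all genes tested the shares were 67.3% and 72.7%, with 88.1% of the shared genes in the same direction. Between the holidays themselves, 16 members differed at week 4 off drug from week 2 off drug, 14 higher and 2 lower, against 29% of all genes (14.6% higher and 14.4% lower). HOXA13 (2.79, 2.23 and 2.80 CPM at week 4, against 1.09, 0.822 and 1.11 CPM at week 2, log2 change 1.37, SE 0.22, adjusted p = 1.71e-05), HOXC12 (log2 change 1.29, SE 0.22, adjusted p = 2.35e-05) and HOXA2 (log2 change 1.18, SE 0.25, adjusted p = 0.000554) rose most. HOXD8 fell (log2 change -0.69, SE 0.10, adjusted p = 3.58e-06).

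Under continuous drug, several members that were low at week 1 had higher levels at week 4. HOXC12, a posterior gene, had 0.540, 0.808 and 0.790 CPM at week 1, 2.10, 3.25 and 2.84 CPM at week 2, 4.21, 4.20 and 3.87 CPM at week 3 and 5.48 and 4.08 CPM at week 4 (week 4 over week 1, log2 change 2.72, SE 0.23, adjusted p = 5.03e-11). HOXA13 had 1.43, 1.10 and 0.658 CPM at week 1, 2.47, 1.56 and 1.65 CPM at week 2, 5.41, 5.16 and 5.42 CPM at week 3 and 4.71 and 4.80 CPM at week 4 (log2 change 2.17, SE 0.22, adjusted p = 2.37e-09). HOXA3 was 3.08-fold higher at week 4 (19.1 and 20.9 CPM, against 6.55, 6.95 and 5.96 CPM at week 1, log2 change 1.62, SE 0.12, adjusted p = 5.16e-12). HOXC10, a gene of the hindlimb region, reached 52.9 and 54.4 CPM, against 27.6, 30.0 and 28.8 CPM at week 1 (log2 change 0.90). HOXD8 (10.6 and 10.4 CPM, against 21.7, 23.5 and 23.3 CPM, log2 change -1.12, SE 0.12, adjusted p = 2.49e-09), HOXD1 (log2 change -0.98, SE 0.40, adjusted p = 0.0480) and HOXD13 (8.16 and 10.1 CPM, against 13.1, 11.3 and 12.7 CPM, log2 change -0.44, SE 0.12, adjusted p = 0.00383) fell. The count was 22 of 38, 17 higher and 5 lower, against 41.0% of all genes (21.1% higher and 19.9% lower), with a member median of 0.38. In HOXA 10 of 11 members were higher, whereas no HOXD member was higher and 3 were lower. With 2 libraries at week 4, HOXD13 and HOXD1 could lose their calls. HOXD13 lost it without week 4 replicate 1, and HOXD1 without either week 4 replicate or without week 1 replicate 3 (adjusted p = 0.207). The HOXD1 call was also lost with DESeq2 (adjusted p = 0.0692). In edgeR it was lost with RLE factors (0.0521), with no count filter (0.0571) and with the replicate number as a block (0.0530).

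Long noncoding and antisense RNAs of the clusters were followed as a list of 18, of which 13 were tested. HAGLR, transcribed opposite HOXD1 and HOXD3, had 69.1 ± 2.52 CPM in untreated cells, 27.8 ± 0.340 CPM at 20 hours, 23.4 ± 2.12 CPM at week 1 and 4.90 ± 0.0435 CPM at continuous week 4 (SD, n = 3, 3, 3 and 2). It fell at 20 hours (log2 change -1.31, SE 0.08, adjusted p = 2.69e-15) and by week 4 of continuous drug relative to week 1 (log2 change -2.25, SE 0.10, adjusted p = 2.46e-17). Its exons cover 8% of the exon bases of HOXD1, and its part in the HOXD1 counts was not tested. HOXA-AS3, opposite HOXA6 and HOXA7, fell at week 1 (log2 change -3.10, SE 0.21, adjusted p = 1.09e-13), as did HOXA-AS2 (log2 change -1.32, SE 0.22, adjusted p = 5.89e-06). HOXA-AS2, which overlaps HOXA3 and HOXA4 on the other strand, then rose in the first holiday (log2 change 1.68, SE 0.21, adjusted p = 7.98e-08) and by continuous week 4 (log2 change 2.70, SE 0.22, adjusted p = 1.36e-11), when HOXA3 rose too. HOTAIR, a HOXC transcript that binds Polycomb proteins, had 2.72 ± 0.0583 CPM at continuous week 4, against 0.641 ± 0.255 CPM at week 1 (log2 change 2.07, SE 0.27, adjusted p = 2.76e-07). HOXA11-AS was higher at 20 hours (log2 change 1.24, SE 0.25, adjusted p = 0.000124), a time at which HOXA11 itself did not pass (log2 change -0.25 ± 0.16 SE). Of the 13, the numbers higher and lower were 1 and 2 in BRAF-V600E against vector cells, 2 and 3 at 20 hours, 3 and 6 at week 1, 2 and 2 in the first holiday, 3 and 3 at week 3, 4 and 1 in the second holiday, and 5 and 1 at continuous week 4 against week 1. In the same order, 17.0%, 53.7%, 54.2%, 54.5%, 56.3%, 45.5% and 41.0% of all genes passed in either direction.

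Of the TALE cofactors, the PBX, MEIS, PKNOX and TGIF homeodomain proteins that bind with HOX proteins or compete for their sites, 10 of 11 were tested. At 20 hours 3 were higher and 2 lower, against 53.7% of all genes: MEIS1 had 21.9 ± 0.706 CPM, against 5.96 ± 0.868 CPM in untreated cells (log2 change 1.88, SE 0.13, adjusted p = 2.29e-13), MEIS3 rose (log2 change 1.23, SE 0.08, adjusted p = 1.29e-13) and PBX3 fell (log2 change -1.54, SE 0.11, adjusted p = 1.99e-13). At week 1, 2 were higher and 4 lower, against 54.2% of all genes. Among them MEIS3 (log2 change 1.47, SE 0.08, adjusted p = 1.27e-15) and TGIF1 (log2 change 1.45, SE 0.08, adjusted p = 5.93e-16) rose, and MEIS2 (log2 change -1.05, SE 0.10, adjusted p = 6.04e-11) fell. The first holiday had 2 higher and 2 lower, week 3 had 4 and 2, and the second holiday 2 and 3, where 54.5%, 56.3% and 45.5% of all genes passed. PKNOX2 fell in both holidays (-1.60 and -0.88 on the log2 scale) and rose at week 3 (1.22), the order also seen in HOXB9.

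All 17 Polycomb repressors were tested, and the median of the list stayed between -0.09 and 0.15 on the log2 scale in the 7 comparisons named for the noncoding RNAs. EZH2, the enzyme that methylates histone H3 at silent HOX genes, had 20.1 ± 0.927 CPM at 20 hours, against 58.1 ± 3.16 CPM in untreated cells (log2 change -1.53, SE 0.08, adjusted p = 2.22e-16). At week 1, 4 were higher and 8 lower, with JARID2, a partner of EZH2 (log2 change -1.20, SE 0.08, adjusted p = 1.76e-13), CBX7 (log2 change -1.19, SE 0.12, adjusted p = 5.90e-10) and PCGF2 (log2 change -1.15, SE 0.08, adjusted p = 5.96e-13) lowest. JARID2 then rose in the first holiday (1.17), fell at week 3 (-1.41) and rose in the second holiday (1.21). CBX2 went the opposite way in the first holiday (-1.65) and at week 3 (1.29). Numbers higher and lower were 7 and 6 at 20 hours, 7 and 3 in the first holiday, 5 and 7 at week 3, and 8 and 3 in the second holiday. Of all genes, 53.7% passed at 20 hours, 54.2% at week 1, 54.5% in the first holiday, 56.3% at week 3 and 45.5% in the second holiday. Of the 11 trithorax and MLL activators, which keep HOX genes active, 3 were higher and 5 lower at 20 hours and 1 higher and 3 lower at week 1. DOT1L, a methyltransferase of active HOX chromatin, fell at 20 hours (-1.12) and week 1 (-1.59), rose in both holidays (1.16 and 1.12) and fell at week 3 (-1.20), all on the log2 scale. KDM6B, which removes the Polycomb mark, rose at 20 hours (1.24) and in both holidays (0.93 and 1.43).

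Retinoic acid is a known inducer of HOX genes, and 15 of 17 genes of its pathway were tested. At 20 hours 4 were higher and 6 lower, against 53.7% of all genes, and ALDH1A3, an enzyme that makes retinoic acid, fell most, to 138 ± 2.12 CPM at 20 hours, against 3516 ± 54.3 CPM in untreated cells (log2 change -4.68, SE 0.08, adjusted p = 2.17e-28). STRA6, a retinol uptake receptor (log2 change -2.41, SE 0.09, adjusted p = 1.19e-19), and RXRG, a retinoid receptor (log2 change -2.40, SE 0.12, adjusted p = 4.89e-17), fell with it. The 4 higher genes were the retinoid receptors RARB (114 ± 6.70 CPM at 20 hours, against 41.3 ± 1.28 CPM in untreated cells, log2 change 1.46, SE 0.07, adjusted p = 4.31e-17), RXRA (log2 change 1.12) and RXRB (0.67), and DHRS3, an enzyme that reduces retinal (0.75). Off drug the list had 8 higher and 2 lower in the first holiday, against 54.5% of all genes called in either direction, and 9 and 3 in the second, against 45.5%. RXRG (3.89 and 5.38) and ALDH1A3 (2.22 and 2.05) rose in both, on the log2 scale. At week 3 back on drug 2 were higher and 11 lower, against 56.3% of all genes, with a list median of -1.56. Of 21 other homeobox genes (DLX, CDX, EN and related families), 10 were tested. DLX1, which lies on chromosome 2 with HOXD, fell at 20 hours (-3.33) and week 1 (-1.92), and DLX5 rose at week 1 (log2 change 4.15, SE 0.12, adjusted p = 1.41e-22), fell in both holidays (-4.22 and -2.57) and rose at week 3 (3.03). Numbers higher and lower in this list were 3 and 4 at 20 hours, 3 and 3 at week 1, 2 and 6 in the first holiday, 5 and 3 at week 3, and 2 and 5 in the second holiday, with the shares of all genes as given for the Polycomb list. Whether any of these genes bears on the HOX changes was not tested.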

How the data were processed

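RNA was measured in 29 libraries of WM239A cells. The deposited raw counts per gene were made by the authors with HTSeq 0.6.1 among their tools, beside HISAT2 2.0.3, Trimmomatic 0.32 and SAMtools 0.1.18, on GRCh38, per the submitters' processing notes. The annotation release and the strand setting are not given in the sources used here. Per the labels' protocols, cells were frozen at each time and all RNA was purified at the end of the course. In the count table the week 3 intermittent columns carry "DrugOff" in their names where the sample labels say drug on, and they were taken by the labels.

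From these counts, edgeR 4.0.16 (R 4.3.3) gave TMM factors, CPM and quasi-likelihood tests, with filterByExpr, 1 group term over all 29 libraries and Benjamini-Hochberg adjustment over the 20494 genes that passed the filter. All 39 members had a row, and 38 passed the filter. Interactions are differences of 2 contrasts in the same fit. Exon lengths and overlaps came from GENCODE 29 and promoter windows from RefSeq, read in Python 3.11.15. The fit was tested on simulated data. The depth of each library limits the precision. The upper limit given for HOXB1 covers counting error only, while SD and SE values include the spread between libraries.

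Full statistics are given for up to 3 largest rises and 3 largest falls per comparison among called members averaging at least 0.5 CPM in a group compared. Genes named beyond that rule were chosen after their values were seen. The members and lists were chosen with earlier results of these data known. Each count of HOX members called was recomputed in alternative fits, as were 78 results for single members. These fits used no count filter, RLE factors, DESeq2 1.42.0, a replicate block, or the compared groups only. Further fits left out each library in turn, or both libraries that stood apart. Results of the other gene lists and cluster sums were not checked this way. Nor were members named beyond the rule, except HOXC12 in the first holiday against week 1. HOX promoters of 19 members are not analysed here, and 1 HOX member is counted in the totals but its own values are not reported here.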

Additional observations from a re-analysis of the deposited data

Results flagged for a closer look

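These results stood out because the effect of the same step differed between its first and second occurrence by an interaction term in edgeR's quasi-likelihood test. For the second minus the first exposure to the drug, the difference of log2 changes was 3.14 in HOXA2, 2.86 in HOXB8 and 2.66 in HOXC12. It was -1.04 in HOXD8 and -0.59 in HOXC8. For the second minus the first withdrawal it was 2.48 in HOXD12, 1.03 in HOXB8 and 0.71 in HOXB5, and -0.91 in HOXC12. The withdrawal calls of HOXB5 and HOXC12 were lost in several alternative fits, as given above. The second exposure started from cells off drug for 7 days and the first from untreated cells, so order and starting state cannot be told apart.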

How the results depend on the processing

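The count of HOX members called in BRAF-V600E against vector cells was 6, but 3 with no count filter and 2 to 5 when a library was left out. For week 3 back on drug against continuous week 3 it was 14, but 9 in a fit of the compared groups only, 9 without both libraries that stood apart, and 9 to 13 when a library was left out. In the other 12 comparisons every alternative tried stayed within 1.5 times the count reported. Leaving out 1 library gave 14 to 19 calls at 20 hours (21 with all), 23 to 26 at week 1 (27), 20 to 22 (23) in the first holiday and 16 to 19 (20) in the second. Of 78 results for single members, 908 alternative values kept direction and call, 70 lost the call and 0 changed direction. RLE factors moved the median of all genes by at most 0.0490 on the log2 scale. With the replicate number as a block, the calls were 7 in BRAF-V600E against vector cells, 19 at 20 hours, 27 at week 1, 23 in the first holiday and 13 at week 3 against continuous drug. Pairing by replicate number was not shown, and a check on deviations from means of so few libraries cannot exclude it. In no comparison did every same-numbered pair correlate above 0.1, though replicates 2 and 3 did in the first holiday (0.237 and 0.180). At most 4 of 6 libraries correlated best with their own number. Depth limits members of few counts, such as HOXC5, HOXA7, HOXA9 and HOXD3.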
